A study of Mus musculus with 6 samples.

Results

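The genes described here are 41 cell cycle and DNA replication genes, taken from the deposited table by their symbols. Of the 41 genes, 39 have a row among the 20015 rows of the table, and Ccnb2, a mitotic cyclin, and Bub1, a spindle checkpoint kinase, have none. Every row of the table reaches at least 10 counts in some library, so Ccnb2 and Bub1 were not analysed here. The 39 genes fall into 11 genes of DNA replication and nucleotide supply, 5 genes of DNA repair and chromatin copying, and 23 genes of mitosis. They were measured by RNA sequencing in 3 libraries of injured quadriceps, from limbs with a torn anterior cruciate ligament (ACL) sampled before surgical reconstruction, and 3 libraries of non-injured quadriceps. The libraries of each group carry the letters A, B and C, and the labels give no strain, genotype, age, time since the injury or meaning of the letters. The organism label is mouse while the series text and the protocol speak of human muscle. The rows are mouse gene models, and 19342 of the 20015 rows have the span of the gene of that name in a mouse annotation on mm10. The name of the table calls the RNA myonuclear (from nuclei of muscle fibres) while the protocol describes total RNA. The labels name no separate animals, donors or cultures behind the 3 libraries of a group. The p-values therefore measure only how far these libraries spread, and that spread may be technical.

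A dividing cell copies its DNA in S phase and parts the copies in mitosis, and different genes serve the steps. The MCM helicase opens the double helix at origins, the sliding clamp PCNA holds polymerases to the template, and ribonucleotide reductase and thymidylate synthase supply the building blocks. Mitotic cyclins and their kinase, spindle motors, kinetochore proteins and condensins then pack and move the chromosomes. Many replication genes are controlled by E2F factors at the G1 to S boundary. Many mitotic genes are controlled by the DREAM and B-MYB complexes through a cell cycle genes homology region (CHR) near the start site, often with CCAAT boxes bound by NF-Y. The nuclei of muscle fibres are postmitotic, and after muscle damage satellite cells, immune cells and fibro-adipogenic progenitors are the cells known to divide.

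Library totals ran from 6.45 to 8.75 M counts, so 1 count was worth 0.115 to 0.153 CPM (a count per 1e6 counts of the library, with the total scaled by edgeR's TMM factor). No pair of libraries matched within counting noise. Injured was compared with non-injured by edgeR's quasi-likelihood test on 16095 genes, with Benjamini-Hochberg adjustment over all of them and a threshold of 0.05. In that test 115 genes were higher in injured quadriceps (0.715% of the genes tested) and 5 were lower (0.0311%). Deviations from the group means correlated at 0.113 to 0.316 between libraries that share a letter, and at -0.232 to 0.0643 between unlike letters. On this evidence, which comes from the same data and is weak for letter C, the fit was repeated with the letter as a block. The value of that fit is given where it changes a call. With the block 516 genes were higher (3.21%) and 427 lower (2.65%). The 8 muscle fibre markers took 166000 to 173000 CPM in the injured and 181000 to 189000 CPM in the non-injured libraries. The tissue thus carried its labelled identity in all 6, at a slightly lower sum in injured quadriceps. Ttn made up 78.3% of this sum. Without Ttn the sums overlapped, at 33400 to 41200 CPM in the injured and 36900 to 42600 CPM in the non-injured libraries.

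All 39 genes were low in this tissue. Their mean counts ran from 4.0 to 161 per library, with a median of 17.2, and 7 of the 39 were at 0 counts in some library. The edgeR filter on low counts kept 29 of the 39, namely all 11 replication genes, 3 of the 5 repair and chromatin genes and 15 of the 23 mitosis genes. Of the 29, 1 gene passed the test as higher in injured quadriceps, the proliferation marker Mki67, against 0.715% of all genes tested. None passed as lower, against 0.0311%. With the letter block 5 of the 29 passed as higher (Mki67, Top2a, Birc5, Cenpf and Mcm5), against 3.21% of all genes tested. None passed as lower with the block, against 2.65%. By unadjusted p under 0.05 the fit without the block had 13 of the 29 higher, against 9.25% of all genes tested, and 0 lower, against 6.11%. Low genes among the 13, such as Mcm5 and Rrm2, passed the filter through the injured group, so this count is given as a description. DESeq2 called 3 genes (Mcm5, Mki67 and Top2a) and limma-voom called 0, and their counts over all genes are given in the closing section. With the block and no filter on low counts, an alternative chosen after seeing the data, edgeR called 596 of the 20015 rows higher (2.98%) and 695 lower (3.47%). Of the 39 genes 6 were then higher (Mcm5, Tyms, Neil3, Mki67, Top2a and Cenpf) and none was lower.

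A simpler reading asks whether every injured library stood above every non-injured library in CPM. This held for 18 of the 39 genes (46.2%), against 14.1% of all rows of the table, and the reverse held for 1 gene, against 8.01%. In the remaining 20 the groups overlapped. Of the 18, 14 have a mean under 20 counts, and 9 of these reach the table's minimum of 10 counts in injured libraries alone. By the mean of the groups, 33 of the 39 were higher in injured quadriceps and 6 lower. Without the filter on low counts, the edgeR log2 fold change was positive in 84.6% of the 39 and in 51.6% of all rows. Of the 21 genes with a mean under 20 counts it was positive in 20 (95.2%), against 75.1% of all rows of that abundance. At 20 to under 50 counts it was positive in 11 of 13 genes (84.6%), against 53.6%. At 50 to under 200 counts it was positive in 2 of 5 genes, near the share of all rows.

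The promoters of the genes that the results turn on are shown first. RefSeq's promoter table for GRCm38.p6 (mm10), 250 bases before to 50 bases from the start site on, has an entry for 35 of the 41 genes. These 7 were chosen because they are the 5 genes that passed a fit and the most abundant mitosis and replication genes, Ncapd2 and Rrm1, whose groups overlapped. Each promoter is read 5′ to 3′ on the gene's strand, and capitals mark matches on either strand. The CCAAT box was searched as these letters. The CHR was searched as TTTGAA and also, in its variant form, as TTCGAA. The E2F element was searched in the form TTCCCGC, in the form TTGGCGC, in the form TTCGCGC and in the form TTGCCGC.
Mki67, chr7:135716330-135716629, minus strand: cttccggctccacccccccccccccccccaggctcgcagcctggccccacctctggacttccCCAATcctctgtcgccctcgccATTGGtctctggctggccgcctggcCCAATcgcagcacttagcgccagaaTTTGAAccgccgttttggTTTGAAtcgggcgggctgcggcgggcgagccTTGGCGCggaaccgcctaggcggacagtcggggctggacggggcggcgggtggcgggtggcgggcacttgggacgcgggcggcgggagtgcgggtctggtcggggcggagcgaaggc
Top2a, chr11:99024140-99024439, minus strand: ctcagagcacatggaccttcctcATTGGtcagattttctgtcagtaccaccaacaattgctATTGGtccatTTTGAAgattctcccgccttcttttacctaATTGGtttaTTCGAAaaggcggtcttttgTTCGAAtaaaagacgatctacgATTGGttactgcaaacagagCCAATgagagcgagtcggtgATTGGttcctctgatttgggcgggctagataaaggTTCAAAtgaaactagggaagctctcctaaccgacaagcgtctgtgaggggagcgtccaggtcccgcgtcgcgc
Birc5, chr11:117848987-117849286, plus strand: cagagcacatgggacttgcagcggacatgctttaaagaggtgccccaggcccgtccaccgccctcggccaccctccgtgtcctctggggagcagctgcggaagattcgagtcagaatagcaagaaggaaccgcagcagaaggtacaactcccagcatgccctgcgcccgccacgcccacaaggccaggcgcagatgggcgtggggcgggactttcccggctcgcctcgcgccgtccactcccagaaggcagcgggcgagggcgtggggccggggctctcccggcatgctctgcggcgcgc
Cenpf, chr1:189688037-189688336, minus strand: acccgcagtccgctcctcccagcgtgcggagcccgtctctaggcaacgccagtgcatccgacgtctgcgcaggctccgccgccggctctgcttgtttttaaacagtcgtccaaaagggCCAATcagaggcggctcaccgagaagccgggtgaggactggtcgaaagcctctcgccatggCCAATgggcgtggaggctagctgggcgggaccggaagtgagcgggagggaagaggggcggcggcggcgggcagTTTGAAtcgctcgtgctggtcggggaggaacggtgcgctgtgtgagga
Mcm5, chr8:75109259-75109558, plus strand: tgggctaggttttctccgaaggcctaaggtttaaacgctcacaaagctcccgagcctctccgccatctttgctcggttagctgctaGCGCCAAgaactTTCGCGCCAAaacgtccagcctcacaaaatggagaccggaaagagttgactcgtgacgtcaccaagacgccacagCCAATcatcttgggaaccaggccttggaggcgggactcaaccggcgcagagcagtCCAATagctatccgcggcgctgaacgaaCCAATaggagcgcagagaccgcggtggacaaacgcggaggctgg
Ncapd2, chr6:125191537-125191836, minus strand: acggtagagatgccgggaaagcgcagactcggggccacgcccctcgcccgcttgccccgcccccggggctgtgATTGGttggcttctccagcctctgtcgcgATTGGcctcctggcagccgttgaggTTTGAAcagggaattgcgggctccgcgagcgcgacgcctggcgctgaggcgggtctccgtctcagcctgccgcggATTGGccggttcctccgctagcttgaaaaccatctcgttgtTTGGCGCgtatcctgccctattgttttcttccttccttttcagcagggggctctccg
Rrm1, chr7:102441445-102441744, plus strand: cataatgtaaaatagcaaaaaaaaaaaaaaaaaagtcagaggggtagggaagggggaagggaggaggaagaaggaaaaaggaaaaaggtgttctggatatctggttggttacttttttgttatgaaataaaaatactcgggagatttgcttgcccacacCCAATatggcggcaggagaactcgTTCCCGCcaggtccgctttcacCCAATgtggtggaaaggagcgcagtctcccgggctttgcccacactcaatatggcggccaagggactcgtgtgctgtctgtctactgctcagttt

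Positions are counted from the start site, with the first transcribed base as 1 and bases before it negative, and refer to the first base of a match. Mki67 has CHR elements at -116 and -98 and an E2F element at -67, Cenpf has a CHR at 3, and Top2a has 4 CHR elements, at -179, -140, -120 and -23. Mcm5 has no CHR but E2F elements at -164, -152 and -149, of which those at -152 and -149 share bases. Birc5 holds none of these letters in this window. Ncapd2 has a CHR at -123 and an E2F element at -7, and Rrm1 an E2F element at -67. Matches of TTGGCGC and CCAAT can share bases, since the other strand of CCAAT reads ATTGG.

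Over the 35 genes, 29 (82.9%) had a CCAAT match, against 41.1% of the 27025 genes with a promoter of this length and 41.9% of the 12465 of them in the deposited table. A CHR element lay in 21 of the 35 (60%), against 21.7% and 17.1%. An E2F element lay in 17 (48.6%), against 10.9% and 17.3%. Among the 20 mitosis genes with an entry 16 (80%) held a CHR and 6 (30%) an E2F element. Among the 10 replication genes with an entry 3 (30%) held a CHR and 7 (70.0%) an E2F element. The repair and chromatin genes held an E2F element in 4 of 5. These shares were not higher among the genes that parted the groups. CHR elements lay in 9 of the 17 genes whose injured libraries all exceeded the non-injured ones (52.9%) and in 10 of the 15 genes whose groups overlapped (66.7%), E2F elements lay in 41.2% and 66.7% of them, and CCAAT in 82.4% and 86.7%. A match is a run of letters, not a measured binding site.

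**Figure D1:**
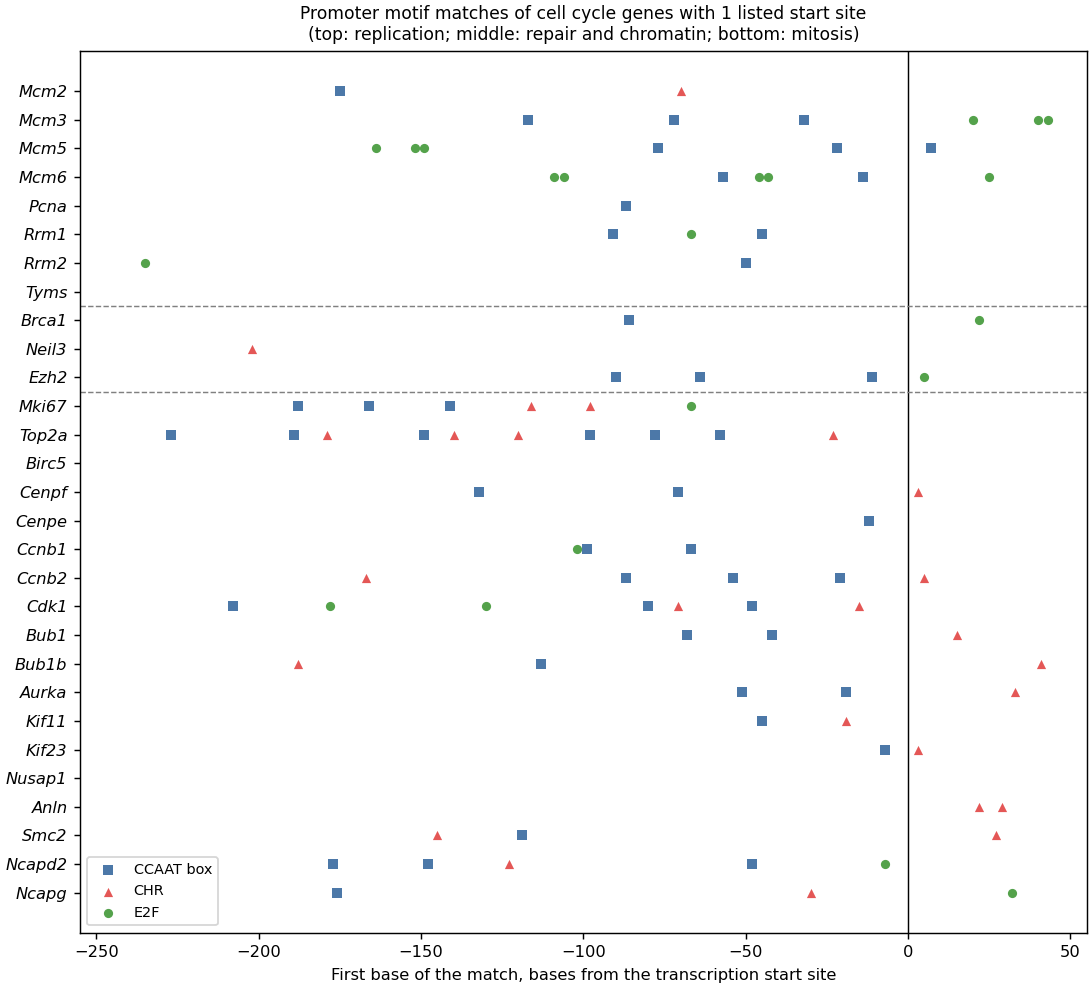
Positions of the promoter motif matches in the 29 cell cycle genes with 1 start site in RefSeq's table, 1 row per gene, with the first base of each match on the x axis in bases from the start site (squares CCAAT, triangles CHR, circles E2F). CHR triangles lie mostly in the mitosis rows at the bottom and E2F circles mostly in the replication rows at the top, and Tyms, Birc5 and Nusap1 have no match.

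Mki67 encodes Ki-67, which coats mitotic chromosomes and is the standard marker of cycling cells, and it lies at chr7:135689784-135716361 on mm10. It had 62, 88 and 57 counts in injured libraries A, B and C and 3, 24 and 18 in non-injured libraries A, B and C. The lowest injured library stood above the highest non-injured one, and non-injured A was far below non-injured B and C. The level was 10.4 ± 2.77 CPM (SD, n = 3) in injured and 1.85 ± 1.28 CPM in non-injured quadriceps. In edgeR's test this was a log2 fold change of 2.46 ± 0.45 (SE), a 5.51-fold difference, with an adjusted p of 0.0285, and 2.54 ± 0.37 with an adjusted p of 0.00108 with the letter block. On leaving out each library in turn, the edgeR log2 fold change ran from 1.97 (without non-injured A, adjusted p 0.0142) to 2.86. The call was lost without injured B (adjusted p 0.105), injured C (0.0638) or non-injured C (0.108) in edgeR, and in limma-voom (adjusted p 0.0518). A gene on the other strand overlaps Mki67, and the strand setting of the counting is not given.

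Top2a encodes topoisomerase II alpha, which untangles sister chromatids, and lies at chr11:98992943-99024189. Its counts were 17, 31 and 16 in the injured libraries and 8, 6 and 4 in the non-injured libraries. All 3 injured libraries were above all 3 non-injured ones, at 3.21 ± 1.34 against 0.748 ± 0.248 CPM. The edgeR log2 fold change of 2.07 ± 0.52 had an adjusted p of 0.0832 without the letter block and 0.0337 with it, while DESeq2 gave 0.0468. Top2a overlaps 1 gene on its strand and 1 on the other, so its values are uncertain where they overlap. Birc5 encodes survivin, a subunit of the chromosomal passenger complex that corrects chromosome attachment, and lies at chr11:117849251-117855743. It had 10, 17 and 24 counts in the injured and 6, 4 and 3 in the non-injured libraries, again with no overlap. Its edgeR log2 fold change of 2.18 ± 0.56 had an adjusted p of 0.0851, and 0.0498 with the letter block.

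Of the kinetochore genes, Cenpf passed with the letter block, and Cenpe and Bub1b failed the filter. Cenpf, a large protein of the outer kinetochore and the nuclear matrix at chr1:189640606-189688086, had 41, 37 and 23 counts in the injured libraries and 5, 24 and 13 in the non-injured libraries. Injured C stood just below non-injured B in counts, but above it once scaled for depth, and the levels were 5.07 ± 1.58 and 1.71 ± 1.06 CPM. The edgeR log2 fold change was 1.54 ± 0.48 with an adjusted p of 0.147, and 1.59 with an adjusted p of 0.0475 with the letter block. As for Mki67, non-injured A was the lowest library. Without both letter A libraries the edgeR log2 fold change of Cenpf was 0.96 with an adjusted p of 0.307. Cenpe, the kinetochore motor, had 17, 12 and 6 counts against 2, 5 and 0. Bub1b, which encodes the checkpoint protein BUBR1, had 9, 8 and 13 counts against 6, 1 and 0. In both, every injured library was above every non-injured one in CPM.

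The cyclins and their kinase were at a handful of counts. Ccna2, the cyclin of S phase and early mitosis, had 26, 34 and 13 counts in the injured and 12, 7 and 11 in the non-injured libraries, without overlap in CPM, and an edgeR log2 fold change of 1.53 with an adjusted p of 0.164. Its values include shared reads in all 6 libraries. Cdk1, the kinase that drives entry into mitosis, had 20, 26 and 5 counts against 6, 6 and 4, and Ccnb1, its cyclin partner, 5, 12 and 0 against 3, 3 and 2. In both, injured C lay within the range of the non-injured libraries or below it. Both failed the filter. Aurkb, the kinase of the passenger complex, likewise had injured C within the non-injured range, with 14, 19 and 2 counts against 2, 2 and 4. Aurka, the spindle pole kinase, had 49, 26 and 17 counts against 31, 27 and 25, and its edgeR log2 fold change of 0.41 had an adjusted p of 0.684.

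Among the spindle and cytokinesis genes some parted the groups and others overlapped. Kif11, the motor that pushes the spindle poles apart, had 27, 24 and 16 counts in the injured and 9, 16 and 11 in the non-injured libraries (edgeR log2 fold change 1.16, adjusted p 0.229). Kif23, a motor of the central spindle, had 9, 14 and 11 counts against 8, 8 and 3 (1.09, adjusted p 0.368). Both separated the groups in CPM without passing the edgeR test. Kif20a, a cytokinesis motor, had 20, 8 and 5 counts against 5, 10 and 4, and Ect2, which activates RhoA at the cleavage furrow, 15, 4 and 2 against 3, 9 and 0, so their groups overlapped. Anln, the scaffold anillin, had 21, 36 and 16 counts against 12, 26 and 21. Nusap1, a microtubule-bundling protein, was the 1 gene of the 39 with every injured library below every non-injured one, at 12, 12 and 11 counts against 17, 22 and 14. Its edgeR log2 fold change was -0.33 with an adjusted p of 0.768.

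The 3 most abundant mitosis genes beside Mki67, namely Ncapd2, Tpx2 and Prc1, did not pass either fit. Ncapd2, a condensin subunit at chr6:125168007-125191701, had 152, 145 and 123 counts in the injured and 202, 182 and 161 in the non-injured libraries, or 21 ± 3.05 against 22.7 ± 2.64 CPM, with overlap. The edgeR log2 fold change was -0.12 ± 0.17 with an adjusted p of 0.797. Tpx2, which nucleates spindle microtubules, had 43, 29 and 34 counts against 64, 69 and 30, a log2 fold change of -0.35 ± 0.32 and an adjusted p of 0.661 in edgeR. Prc1, the bundler of the central spindle, had 48, 44 and 41 counts against 44, 53 and 42, a log2 fold change of 0.20 ± 0.25 and an adjusted p of 0.757 in edgeR. The condensin ATPases Smc2 (23, 29 and 25 counts against 15, 16 and 23) and Smc4 (22, 25 and 34 against 12, 25 and 26) had edgeR log2 fold changes of 0.76 and 0.61 with adjusted p of 0.373 and 0.494. The groups did not overlap in CPM for Smc2 and did for Smc4. Ncapg, another condensin subunit, had 2, 9 and 1 counts against 11, 1 and 0. Per kilobase of exon, Ncapd2 stood at 3.35 CPM in injured and 3.63 in non-injured quadriceps, while Mki67 stood at 1.03 and 0.184. The values of Ncapd2, Prc1 and Kif20a include shared reads in 5 or 6 of the 6 libraries, and Ncapd2 overlaps 2 genes on its strand, so their levels are uncertain.

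Of the 23 mitosis genes, 10 had every injured library above every non-injured one (43.5%) and 1 had the reverse, against 14.1% and 8.01% of all rows. Of the 10, 7 have a mean under 20 counts, and 22.9% of all rows of that abundance were higher without overlap. The median edgeR log2 fold change of the 15 that passed the filter was 0.76, with a range from -0.35 to 2.46, beside 0.00 over all genes tested. A gene that passes the filter only through the group in which it is high had to differ, so this median is given as a description.

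**Figure D2:**
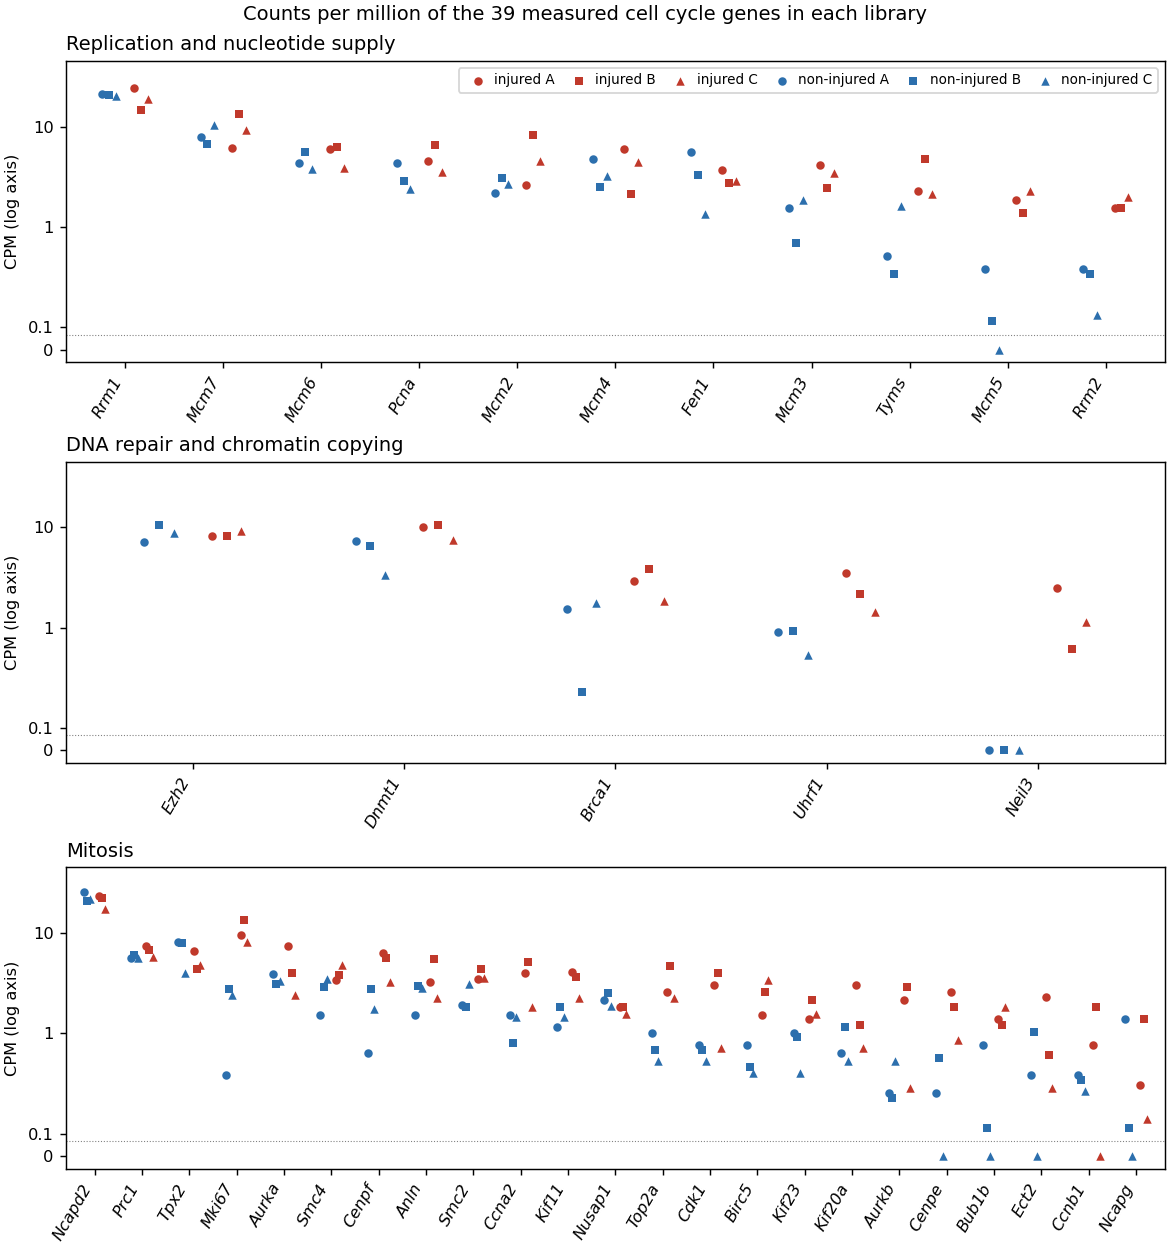
Level of each of the 39 genes in CPM on a log axis, with values of 0 drawn below the dotted line. Each library has 1 point (red injured, blue non-injured, circle A, square B, triangle C). Genes are ordered by mean count within each group of genes. Mki67 has its 3 red points above its 3 blue points, Neil3 has all 3 blue points at 0, and Rrm1, Ezh2 and Ncapd2 overlap.

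The 6 MCM genes encode the subunits of 1 hexamer, and their edgeR log2 fold changes ran from 0.20 to 3.34. Mcm5, at chr8:75109569-75128439, had 12, 9 and 16 counts in the injured and 3, 1 and 0 in the non-injured libraries, or 1.83 ± 0.451 against 0.166 ± 0.196 CPM. No injured library reached down to a non-injured one. The edgeR log2 fold change was 3.34 ± 0.76 with an adjusted p of 0.0671, and 3.36 with an adjusted p of 0.0259 with the letter block, while DESeq2 gave 0.0405. These values rest on a mean of 6.83 counts per library. Mcm3 had 27, 16 and 24 counts against 12, 6 and 14, also without overlap in CPM, and its edgeR adjusted p was 0.218 at a log2 fold change of 1.29.

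The other 4 MCM genes overlapped between the groups. Mcm2 had 17, 54 and 32 counts in the injured and 17, 27 and 20 in the non-injured libraries, with injured B highest. Mcm4 had 39, 14 and 31 against 37, 22 and 24. Mcm6 had 39, 41 and 27 against 34, 49 and 28, with an edgeR log2 fold change of 0.22 ± 0.31 and an adjusted p of 0.788. Mcm7 had 40, 87 and 65 against 62, 58 and 78, with 0.20 ± 0.29 and an edgeR adjusted p of 0.793. Per kilobase of exon, Mcm7 stood at 1.88 CPM and Mcm5 at 0.0415 in non-injured quadriceps, and at 2.16 and 0.458 in injured quadriceps. Mcm7 overlaps 3 genes on its strand and 2 on the other and includes shared reads in 4 of the 6 libraries, so its level is uncertain. The difference between the fold changes of MCM genes was not tested.

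The subunits of ribonucleotide reductase, which makes deoxynucleotides, stood at 1.89 (Rrm1) and 0.104 (Rrm2) CPM per kilobase of exon in non-injured and 1.74 and 0.608 in injured quadriceps. The difference between their fold changes was not tested. Rrm1, the large subunit at chr7:102441695-102469771, had 158, 95 and 132 counts in the injured and 167, 181 and 152 in the non-injured libraries, or 19.2 ± 4.85 against 20.8 ± 0.477 CPM. The injured libraries spread around the non-injured ones, and the edgeR log2 fold change was -0.12 ± 0.19 with an adjusted p of 0.814. Rrm2, the small subunit whose level follows S phase, had 10, 10 and 14 counts against 3, 3 and 1, or 1.68 ± 0.268 against 0.287 ± 0.134 CPM, without overlap. Its edgeR log2 fold change was 2.47 ± 0.62 with an adjusted p of 0.0833, and 0.0505 with the letter block. Tyms, thymidylate synthase, had 15, 31 and 15 counts against 4, 3 and 12, again without overlap in CPM. Its edgeR log2 fold change of 1.90 had an adjusted p of 0.16, and 0.0786 with the block. With the block and no filter, the adjusted p of Tyms in edgeR was 0.0488.

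Pcna, the sliding clamp, had 30, 43 and 25 counts in the injured and 34, 25 and 18 in the non-injured libraries, or 4.91 ± 1.53 against 3.21 ± 1.01 CPM. The groups overlapped, and the edgeR log2 fold change of 0.61 ± 0.36 had an adjusted p of 0.458. Fen1, the nuclease that trims Okazaki fragments, had 24, 18 and 20 counts against 44, 29 and 10, with non-injured A above and non-injured C below all injured libraries in CPM. Values of Pcna and Fen1 include shared reads in 6 and 5 of the 6 libraries. Of the 11 replication genes, 4 had every injured library above every non-injured one (36.4%, against 14.1% of all rows) and none the reverse. All 4 have a mean under 20 counts, and 22.9% of all rows of that abundance were higher without overlap. None of the replication genes with a mean of at least 20 counts was. The median edgeR log2 fold change of the 11 was 0.61, with a range from -0.15 to 3.34. It was 0.26 over those with a mean of at least 20 counts. Low genes such as Mcm5 and Rrm2 passed the filter through the injured group, so this median too is a description.

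The repair and chromatin genes were few and mostly higher in injured quadriceps. Neil3, a DNA glycosylase of dividing cells, had 16, 4 and 8 counts in the injured libraries and 0 in all 3 non-injured libraries. It failed the filter, and against a floor of 3 counts over the non-injured group it was at least 11.2-fold higher. With the letter block and no filter its adjusted p in edgeR was 0.0216. Neil3 reached the table's minimum of 10 counts in injured A alone, so these values are given as a description. Uhrf1, which brings DNA methylation to newly copied DNA, had 23, 14 and 10 counts against 7, 8 and 4, or 2.36 ± 1.07 against 0.782 ± 0.214 CPM, and failed the filter.

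Dnmt1, the maintenance DNA methyltransferase that works with UHRF1, had 65, 69 and 52 counts in the injured and 57, 57 and 25 in the non-injured libraries, or 9.30 ± 1.67 against 5.72 ± 2.09 CPM. The groups did not overlap, yet the nearest libraries were close, and the edgeR log2 fold change of 0.69 ± 0.30 had an adjusted p of 0.292. Brca1, of homologous recombination, had 19, 25 and 13 counts against 12, 2 and 13, or 2.86 ± 0.986 against 1.17 ± 0.818 CPM, with a log2 fold change of 1.3 ± 0.60 and an adjusted p of 0.325 in edgeR. Ezh2, the methyltransferase of a Polycomb repressive complex, had 53, 54 and 64 counts against 56, 91 and 66, or 8.49 ± 0.541 against 8.81 ± 1.65 CPM. Its groups overlapped, and the edgeR log2 fold change was -0.05 ± 0.23 with an adjusted p of 0.94. In this group of genes 4 of 5 had every injured library above every non-injured one (80%, against 14.1% of all rows). Of these 4, 3 have a mean under 20 counts, where the share of all rows was 22.9%.

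The 39 genes were read by abundance beside all rows. Of the 21 genes with a mean under 20 counts, 14 had every injured library above every non-injured one (66.7%), against 22.9% of all rows of that abundance. Of the 13 genes with a mean of 20 to under 50 counts, 3 did (23.1%), against 14.4%, and of the 5 genes with 50 to under 200 counts, 1 did (20%), against 8.51%. A row is in the table only if some library reaches 10 counts, and of the 14 low genes that parted the groups 9 reach it in injured libraries alone. Over all rows under 20 counts 37.9% reach it in injured libraries alone and 10.2% in non-injured libraries alone. The minimum that rows had to reach can therefore fix part of the excess at low counts. Without the filter, the median edgeR log2 fold change of all rows under 20 counts was 0.65, and that of the 21 genes was 1.51. In the middle span the medians were 0.04 and 0.51, and in the highest span -0.09 and -0.11.

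**Figure D3:**
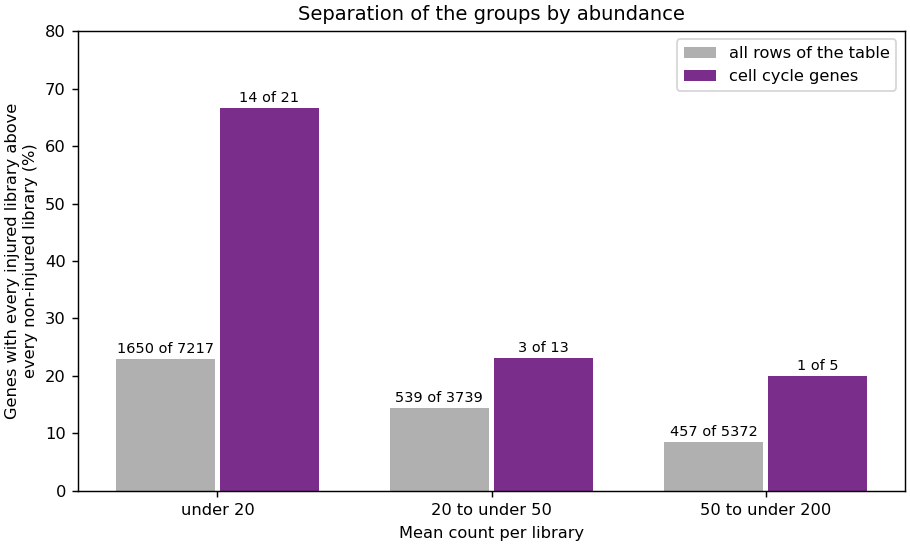
Percent of genes with every injured library above every non-injured library, by mean count per library, for all rows of the table (grey bars) and for the 39 genes (purple bars), with the counts above the bars. Rows enter the table only with 10 counts in some library, and the purple bar is higher in each span, at 66.7% against 22.9% on the left and 20% against 8.51% on the right.

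**Figure D4:**
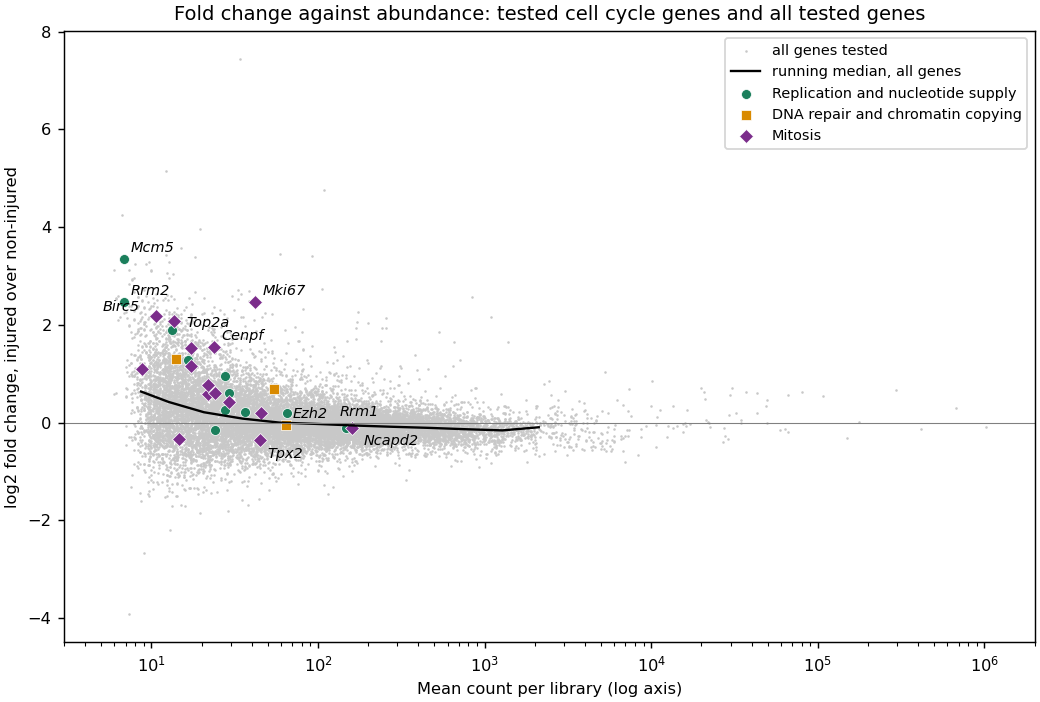
The log2 fold change of injured over non-injured (edgeR) against the mean count per library on a log axis, for all 16095 genes tested (grey) with their running median (line) and the 29 tested cell cycle genes (circles replication, squares repair and chromatin, diamonds mitosis). Mki67 lies at 2.46 and Mcm5 at 3.34, while Rrm1 and Ncapd2, the most abundant, both lie at -0.12.

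Summed over genes, each role was higher in every injured library than in any non-injured one. The 23 mitosis genes together had 102, 105 and 70.5 CPM in the injured and 62.0, 62.7 and 56.1 CPM in the non-injured libraries, or 92.5 ± 19.1 against 60.3 ± 3.62 CPM, a ratio of 1.53. Injured C was the lowest injured library and closest to the non-injured range. The 11 replication genes together had 62.9, 63.9 and 57.1 CPM against 53.2, 46.4 and 47.8 CPM, a ratio of 1.25. The 5 repair and chromatin genes had 26.9, 25.4 and 20.9 CPM against 16.8, 18.1 and 14.5 CPM, a ratio of 1.48. A sum is weighted to its most abundant gene. Rrm1 made up 36.2% of the replication sum and Ncapd2 28.6% of the mitosis sum. Without them, in sums chosen after seeing the data, the ratios were 1.49 for replication and 1.91 for mitosis.

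Taken by letter, the mitosis sum was 1.64 times the non-injured one in pair A, 1.68 times in pair B and 1.26 times in pair C. The replication sum was 1.18, 1.38 and 1.19 times. Of the 39 genes, 33 were higher in the injured library of pair A (84.6%), 32 of pair B (82.1%) and 31 of pair C (79.5%), beside 52.1%, 56.2% and 53.5% of all rows. Of the 39 genes, 21 have a mean under 20 counts. Among all rows of that abundance, 75.1% had a positive edgeR log2 fold change without the filter on low counts. The shares by pair are therefore given as a description. The direction of the mitosis and replication sums was the same in the 3 pairs, while the size for mitosis genes was smallest in pair C.

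**Figure D5:**
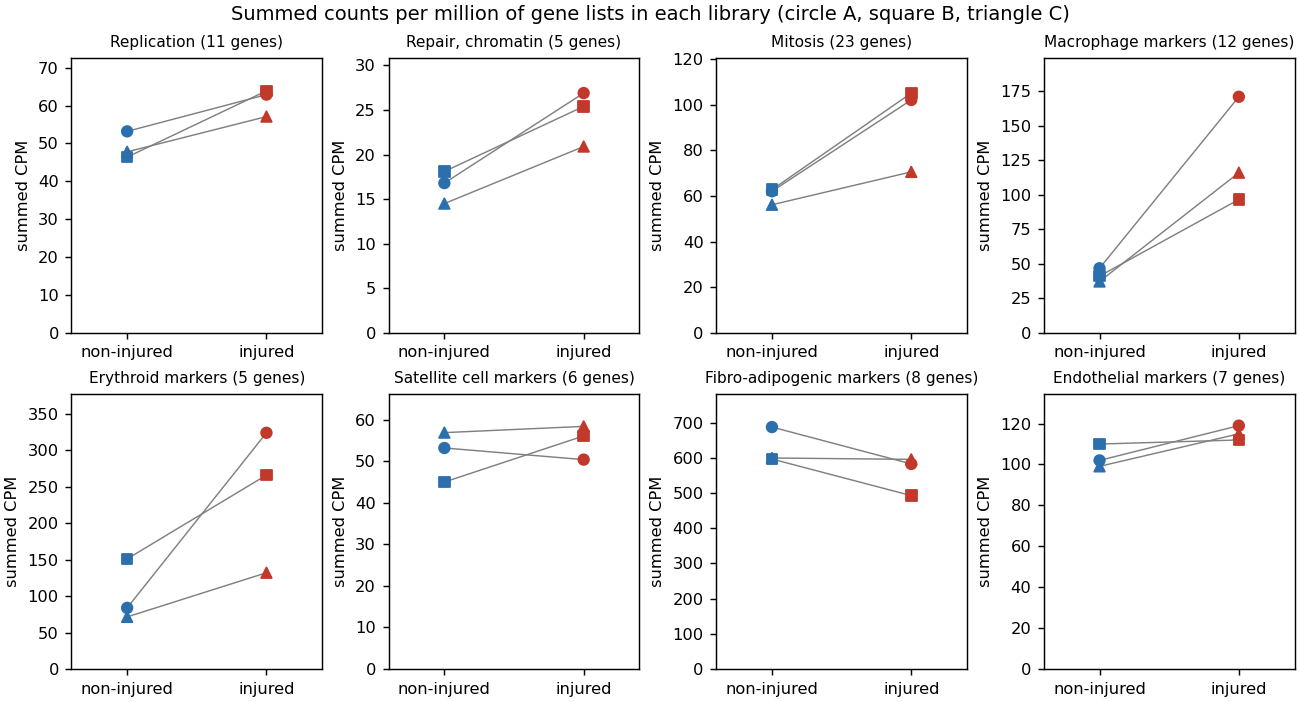
Summed CPM of the 3 groups of cell cycle genes and of 5 lists of cell type markers in each library (blue non-injured, red injured; circle A, square B, triangle C), with lines joining libraries of the same letter and each y axis starting at 0. The mitosis sum is higher in the injured library of all 3 pairs and least so in pair C, the macrophage sum is higher in all 3 pairs and most so in pair A, and the satellite cell sums overlap.

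Other genes of the cell cycle were read from 6 further lists with 95 genes, of which 77 have a row and 68 passed the filter. In edgeR's test 1 of the 68, Cdk6, was higher, against 0.715% of all genes tested, and none was lower. With the letter block 5 were higher, against 3.21%, and 1 was lower, against 2.65%. Their median edgeR log2 fold change was 0.33. Of the 77, 22 separated the groups as higher in injured (28.6%, against 14.1% of all rows) and 7 as lower, near the 8.01% of all rows. Cdk6, a G1 kinase that phosphorylates the retinoblastoma protein, at chr5:3341485-3531008, had 87, 45 and 32 counts in the injured and 18, 15 and 11 in the non-injured libraries. Injured A was highest, and the levels were 8.25 ± 4.54 and 1.83 ± 0.422 CPM. The edgeR log2 fold change of 2.16 ± 0.42 had an adjusted p of 0.0367, and 2.10 with 0.00164 with the block. On leaving out each library in turn the edgeR log2 fold change ran from 1.62 (without injured A, adjusted p 0.0859) to 2.44. The edgeR call was also lost without injured B (0.0702), without non-injured C (0.191) and without non-injured B (0.1), and limma-voom gave an adjusted p of 0.0988.

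Cyclins and kinases of G1 and S phase parted the groups most often of these lists, with 6 of 9 higher (66.7%, against 14.1% of all rows) and 1 lower. Their sum was 59.1 ± 4.83 CPM in injured and 36.6 ± 5.03 CPM in non-injured quadriceps, without overlap. Ccnd3, a D-type cyclin that partners CDK4 and CDK6, had 49, 50 and 56 counts against 31, 32 and 31, or 7.71 ± 0.242 against 3.93 ± 0.239 CPM, and an edgeR adjusted p of 0.0947 without and 0.0416 with the letter block. Among E2F, pocket protein and MuvB genes, 4 of 19 parted the groups as higher (21.1%, against 14.1% of all rows) and 1 as lower. Rbl1, which encodes the pocket protein p107, had 54, 23 and 29 counts against 10, 15 and 8, with a log2 fold change of 1.94 ± 0.44 and an adjusted p of 0.0655 in edgeR, or 0.0168 with the block. Among further kinetochore, spindle and checkpoint genes, 8 of 15 were higher without overlap (53.3%, against 14.1% of all rows) and 1 was lower. Their median mean count was 13.3, and 22.9% of all rows with a mean under 20 counts were higher without overlap. The sums of this list overlapped at means of 244 and 243 CPM, with Ube2c at 65.0% of the sum. Without Ube2c they were 96.0 ± 6.62 CPM in injured and 74.3 ± 4.51 CPM in non-injured quadriceps. Knl1, a kinetochore scaffold, had 19, 20 and 21 counts against 4, 7 and 8 (edgeR adjusted p 0.0844, and 0.0419 with the block). Racgap1, of the central spindle, had 19, 21 and 21 against 1, 2 and 12 (edgeR adjusted p 0.143, and 0.0388 with the block).

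Of 12 licensing and firing genes, 1 was higher without overlap (8.33%, against 14.1% of all rows) and 3 were lower, all of them subunits of the origin recognition complex. The sum of the 12 was 80.8 ± 8.82 CPM in injured and 93.3 ± 1.88 CPM in non-injured quadriceps, lower without overlap. Orc4 made up 29.1% of it. Orc4 had 134, 135 and 141 counts in the injured and 224, 261 and 242 in the non-injured libraries, or 20.4 ± 0.293 against 30.3 ± 1.94 CPM. Its edgeR log2 fold change of -0.57 ± 0.15 had an adjusted p of 0.0879, and 0.0249 with the block. Of 16 polymerase, clamp loader and single-strand binding genes, 3 were higher (18.8%) and 1 lower without overlap, near the shares of all rows, and their sums overlapped at means of 106 and 104 CPM. The most abundant of them, Rfc1, the large clamp loader subunit, stood at 21 ± 6.0 against 23.7 ± 0.77 CPM (edgeR adjusted p 0.73). None of the 6 CDK inhibitor genes parted the groups. Cdkn1a, which encodes p21, had 103, 172 and 418 counts against 128, 426 and 360, and spread widely within both groups (33.9 ± 22.8 against 37.8 ± 18.6 CPM, edgeR adjusted p 0.902).

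Markers of cells that can divide in damaged muscle were read beside these values. In bulk RNA, fewer cells of a type and less RNA per cell cannot be told apart. The 12 macrophage and monocyte markers summed to 96.6 to 171 CPM in the injured and 37.2 to 46.8 CPM in the non-injured libraries. Of the 12 markers, 11 had every injured library above every non-injured one (91.7%, against 14.1% of all rows). In edgeR's test 3 passed as higher, against 0.715% of all genes tested, and 8 with the letter block, against 3.21%. Fcgr1 was the only marker of the 12 at 0 in some library. The 6 satellite cell and myoblast markers summed to 54.9 ± 4.12 CPM in injured and 51.7 ± 6.09 CPM in non-injured quadriceps, with overlap, and none passed either fit. By their means 2 of the 6 were higher and 4 lower in injured quadriceps, and Myod1 made up 54.1% of the sum. Of the 6, 1 had every injured library above every non-injured one (16.7%, against 14.1% of all rows). This was Myog, the marker of differentiating myoblasts. With the block and no filter, the edgeR log2 fold change of Myog was 0.63 with an adjusted p of 0.041. Pax7, the defining marker of satellite cells, had 6, 31 and 29 counts against 19, 22 and 34.

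The 8 fibro-adipogenic progenitor markers summed to 493 to 596 CPM in the injured and 597 to 688 CPM in the non-injured libraries. In that list 3 markers were higher without overlap (37.5%, against 14.1% of all rows) and 1 was lower without overlap. The latter was Gsn, which made up 73.5% of the sum, and none of the 8 markers passed either fit. By their means 7 of the 8 were higher in injured quadriceps, and without Gsn the sum was 168 ± 11.9 CPM in injured and 146 ± 12.3 CPM in non-injured quadriceps, the other direction. The 7 endothelial markers summed to 112 to 119 CPM in the injured and 99.1 to 110 CPM in the non-injured libraries, higher without overlap. Of the 7, 1 was higher without overlap (14.3%, near the 14.1% of all rows), and none passed either fit. Of 8 lymphocyte markers 3 had a row, and their sums of 3.84 to 7.04 and 2.30 to 5.99 CPM overlapped. Their mean counts were 6.0 to 16.7, 2 of the 3 were higher without overlap, against 22.9% of all rows under 20 counts, and none passed either fit. Cd3e made up 49.8% of the sum. Without it the sums were 2.42 to 4.59 CPM in the injured and 0.937 to 1.15 CPM in the non-injured libraries. The 5 erythroid markers with a row summed to 132 to 324 CPM in the injured and 71.4 to 151 CPM in the non-injured libraries, with overlap. Of the 5, 1 passed edgeR's test as higher, against 0.715% of all genes tested, and 4 the fit with the block, against 3.21%. What part the cells of any of these marker lists have in the values of the cell cycle genes was not tested.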

How the data were processed

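RNA of 3 injured and 3 non-injured quadriceps was sequenced. The authors deposited their estimated counts in a single gene table, with 72.24% to 74.54% whole values per library. The submitters' processing notes list STAR 2.7.8a, Partek, DESeq2, mm10 and hg19 and give no roles. The counter, the use of strand and the gene annotation were not given in the sources used here. A fractional value means reads shared between features. Of the rows, 96.6% have the span of the same-named gene in GENCODE M21 on mm10, with an end tolerance of 1 base.

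Counts were rounded, filtered with filterByExpr (3920 of 20015 rows dropped), scaled by TMM and tested two-sided with edgeR 4.0.16 (R 4.3.3). The fit was run on simulated data with changes only in genes with a mean of at least 20 counts. These data had the same dispersion for every gene and no effect of the letter. That check therefore does not cover genes of lower counts or the gain from the block. SE was computed as the size of the log2 fold change divided by the root of its F statistic. DESeq2 1.42.0, limma-voom (limma 3.58.1), other filters and scalings, the letter as a block and leaving out libraries were alternatives. Deviations from the group means correlated at 0.316, 0.208 and 0.113 for letters A, B and C between the groups, all over 0.1. Unlike letters correlated at -0.232 to 0.0643. The letters were thus treated as pairs on the data's evidence alone, with a small margin for letter C. Libraries held 6.46, 6.45 and 7.50 M (injured A, B, C) and 7.91, 8.75 and 7.23 M counts (non-injured A, B, C), and the floor covers counting error only. The exon length is the union of GENCODE M21 exons.

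The genes, roles and lists were chosen with earlier results of these data known, so they get no list test. Values in every library are given for genes past adjusted p under 0.05 in either fit, for the 4 most abundant of each role, and as raw counts for the rest. From each further list came up to 4 genes past either fit, or the most abundant gene where none passed.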

Additional observations from a re-analysis of the deposited data

How the results depend on the processing

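With 3 libraries a group and means of 4.0 to 161 counts, a difference in 1 of these genes could often not be detected. No other call among the named genes changed with the letter block. Over all genes the main test called 115 higher and 5 lower. The higher count was 252 with DESeq2, 53 with limma-voom, 516 with the letter as a replicate block, 596 with the block and no filter, and 20 to 104 on leaving out each library. The lower count was 17 with no filter, 75 with DESeq2, 427 with the block, 695 with the block and no filter, 132 without both letter A libraries, and 0 to 25 on leaving out each library.

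Replication genes called higher went from 0 to 1 with DESeq2, with the block and without both letter A libraries, and to 2 with the block and no filter. Repair and chromatin genes went from 0 to 1 with the block and no filter. Mitosis genes went from 1 to 2 with DESeq2, 0 with limma-voom, 4 with the block, 3 with the block and no filter, and 0 to 1 on leaving out each library. The further lists went from 1 higher to 2 with DESeq2, 0 with limma-voom, 5 with the block with or without the filter, 0 without both letter A libraries, and 0 to 1 on leaving out each library, and from 0 lower to 1 with the block and 2 with the block and no filter. The median log2 fold change of 0.61 for replication was 0.26 over genes with a mean of at least 20 counts, where fewer genes enter, and 0.42 to 0.80 on leaving out each library; that of mitosis, 0.76, was 0.75 to 1.23. The log2 ratio of summed CPM went from 0.32 to 0.57 for replication without Rrm1 (0.28 to 0.38 on leaving out each library) and from 0.62 to 0.93 for mitosis without Ncapd2 (0.51 to 0.78).

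The sign turned, never past the test, in 7 genes. On leaving out each library the log2 fold change ran from -0.09 (without injured A) to 0.58 for Mcm4, -0.11 (without injured B) to 0.42 for Mcm7, -0.55 to 0.36 (without non-injured A) for Fen1, -0.33 to 0.05 (without injured B) for Rrm1, -0.21 to 0.07 (without non-injured B) for Ezh2, -0.13 (without injured A) to 0.71 for Aurka, and -0.88 to 0.17 (without injured A) for Cdkn1a, which was also 0.06 without non-injured B and 0.03 without non-injured C. Fen1 was 0.04 with limma-voom and 0.24 without both letter A libraries, where Aurka was -0.02. The cause of these changes was not tested. Another scaling moved the median of all genes by at most 0.03 and turned no sign among the named genes.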
